A study of Mus musculus with 58 samples.

Results

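The endoplasmic reticulum (ER) folds secreted and membrane proteins, and the unfolded protein response is the programme by which a cell adjusts that capacity. Misfolded proteins in the ER lumen are sensed by 3 membrane proteins, IRE1 (encoded by Ern1), ATF6 (Atf6) and PERK (Eif2ak3), and active IRE1 splices the Xbp1 mRNA so that it encodes a potent transcription factor. ER-associated degradation (ERAD) removes what cannot be folded: EDEM1 (Edem1) trims mannose from misfolded glycoproteins, SEL1L (Sel1l) and the ubiquitin ligase HRD1 (Syvn1) form the membrane complex that passes them to the proteasome, and HERP (Herpud1) is an ER membrane partner of that complex. In the retina this machinery is best known from photoreceptors, which make large amounts of rhodopsin. The 8 genes Xbp1, Ern1, Atf6, Eif2ak3, Edem1, Herpud1, Sel1l and Syvn1 were taken by symbol, as a list drawn up with earlier results of these data known, out of the 52459 gene symbols of the count table.

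RNA was sequenced from individual retinas of male mice at 4 months of age, collected at 6 times of a 12 h light and 12 h dark cycle, given as zeitgeber time (ZT, hours after lights on). The 30 control libraries came from C57/BL/6 wild-type littermates and numbered 5, 6, 5, 5, 5 and 4 at ZT1, ZT5, ZT9, ZT13, ZT17 and ZT21. The 28 diabetic libraries came from heterozygous C57BL/6-Ins2Akita/J littermates with blood glucose above 250 mg/dL, and numbered 5, 5, 5, 4, 4 and 5. The Akita allele is a missense mutation of the insulin 2 gene that makes misfolded insulin in pancreatic beta cells, and it is carried in the germ line. All animals were perfused, were otherwise untreated, and were dissected under dim red light at night.

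Between 7773117 and 22147398 reads were counted per library, and the 8 genes held between 189 reads (Edem1) and 3275 reads (Sel1l) in a single library. At the median count of each gene, counting error alone gives an SD of 0.030 on the log2 scale for Sel1l, 0.050 for Eif2ak3 and 0.073 for Edem1. Ins2 had 0 to 6 reads per library, which gives no check of a missense allele, and all libraries carried Ddx3y reads at 411 or more and Xist reads at 25 or fewer, as males would. Rod markers summed to between 36160 and 54771 reads per 1000000 counted reads (CPM) in every library. Summed markers of lens reached 2212, 1512 and 1752 CPM in 1 control library each at ZT1 (replicate 6), ZT17 (replicate 5) and ZT21 (replicate 2), against medians of 1.06 CPM in control and 0.783 CPM in diabetic libraries, and values without these 3 libraries are given where they bear on a result. Summed markers of retinal pigment epithelium ranged from 13.6 to 185 CPM and differed between times, as given with the Xbp1 values. In bulk RNA, fewer cells of a type and less RNA per cell cannot be told apart.

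The upstream sequences of 7 of the 8 genes could be matched to RefSeq on build GRCm38.p6, the exception being Atf6. They were searched on both strands, over the 250 bases before the transcription start, for the ER stress response elements ERSE (CCAAT and CCACG with 9 bases between them) and ERSE-II (ATTGG and CCACG with 1 base between them), for the core of the unfolded protein response element (TGACGTGG) and for the E-box of clock factors (CACGTG). The letters CCACG are common to ERSE, ERSE-II and the opposite strand of the element core. Herpud1 held an ERSE-II from 52 to 42 bases upstream of its start, a motif found in 0.0304% of 32851 promoters. Syvn1 held an ERSE from 44 to 26 bases upstream, a motif found in 0.113% of promoters. Neither the element core, found in 0.563% of promoters, nor the E-box, found in 6.02%, was present in any of the 7 windows, which says only that these letters are absent there. The windows of the 2 matched genes are shown because they carry the motifs, and that of Xbp1, with no match, because Xbp1 was the member with the largest daily change. Lines run 5′ to 3′ on the plus strand, and capitals mark the fixed letters of the motif.
Xbp1 (chr11:5520391-5520640): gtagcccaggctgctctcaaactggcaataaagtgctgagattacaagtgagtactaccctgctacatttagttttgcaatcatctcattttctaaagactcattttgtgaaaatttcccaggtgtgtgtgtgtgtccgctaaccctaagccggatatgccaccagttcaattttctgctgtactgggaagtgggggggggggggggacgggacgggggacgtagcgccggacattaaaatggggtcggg
Herpud1 (chr8:94386179-94386428): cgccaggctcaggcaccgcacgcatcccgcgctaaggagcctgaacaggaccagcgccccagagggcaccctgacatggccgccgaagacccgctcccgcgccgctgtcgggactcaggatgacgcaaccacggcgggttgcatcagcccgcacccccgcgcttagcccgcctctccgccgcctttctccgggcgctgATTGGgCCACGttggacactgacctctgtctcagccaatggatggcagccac
Syvn1 (chr19:6046326-6046575): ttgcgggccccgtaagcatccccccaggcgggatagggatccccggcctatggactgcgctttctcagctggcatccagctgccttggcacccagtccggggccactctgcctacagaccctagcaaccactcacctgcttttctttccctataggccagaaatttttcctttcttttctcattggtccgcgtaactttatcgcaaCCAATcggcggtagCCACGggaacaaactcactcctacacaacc

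The 8 genes lie on 6 chromosomes in the GRCm38 annotation, and 1 member shared exon sequence with another well expressed gene. Xbp1 spans positions 5520659 to 5525893 of chromosome 11 on the plus strand, and Sel1l spans 91806043 to 91849157 of chromosome 12 on the minus strand. In 91 bases, or 2% of its exon length, Syvn1 overlaps Mrpl49 on the opposite strand, which averaged 874 reads, and the strand setting of the counting is not given in the sources used here. For Eif2ak3 the 485 overlapping bases belong to Gm43292, which averaged 0.4 reads. Counts are per gene, so spliced and unspliced Xbp1 mRNA were counted together and no value here measures cleavage of ATF6 or phosphorylation of IRE1 or PERK.

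Levels were compared between genes as CPM per kilobase of exon. In control retinas the order ran from Herpud1 at 23.7 ± 3.09 (SD, n = 30) through Sel1l at 18.4 ± 0.698, Xbp1 at 17.8 ± 4.71, Syvn1 at 13.3 ± 2.36, Atf6 at 13.2 ± 0.798, Eif2ak3 at 8.75 ± 0.479 and Ern1 at 7.47 ± 0.430 to Edem1 at 4.02 ± 0.337. The pairs Sel1l and Xbp1, and Syvn1 and Atf6, were closer than their SDs, and Edem1 was below every other member, with a highest library of 4.64 against a lowest of 6.65 for Ern1. The same order held in the 28 diabetic retinas.

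Members differed widely in how much they varied between libraries of the same group. Sel1l was the steadiest of the 8, with an SD of 0.047 on the log2 scale around the group means, and 0.0833% of 1201 genes of similar level had a smaller one. Atf6 had an SD of 0.063 and Eif2ak3 one of 0.070, with 2.49% and 1.27% of similar genes below them. These SDs include the counting error above. Ern1 had 0.089, Edem1 0.13, Xbp1 0.15 and Herpud1 0.16. Syvn1 varied most, with an SD of 0.22 that exceeded that of 90.9% of genes of its level. Thus SEL1L and HRD1, which form 1 complex, were encoded by the steadiest and the most variable of these mRNAs.

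The first question was which of these genes changed over the day. Xbp1 was the only member called rhythmic, in both control and diabetic retinas, with its highest level in the middle of the night. A transcript was called rhythmic with p under 0.05 in an empirical JTK test, a rank test of a 24 h waveform against 1000000 shuffled series, and a minimum ratio of the highest to the lowest library, which Mbtps1, at 1.253 in control retinas, just passed. By this rule 1 of 8 members was rhythmic in control and 1 of 8 in diabetic retinas, where 21.8% and 23.9% of 19120 expressed genes were. The values by library follow, as read counts normalised by DESeq2 size factors.

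**Figure D1:**
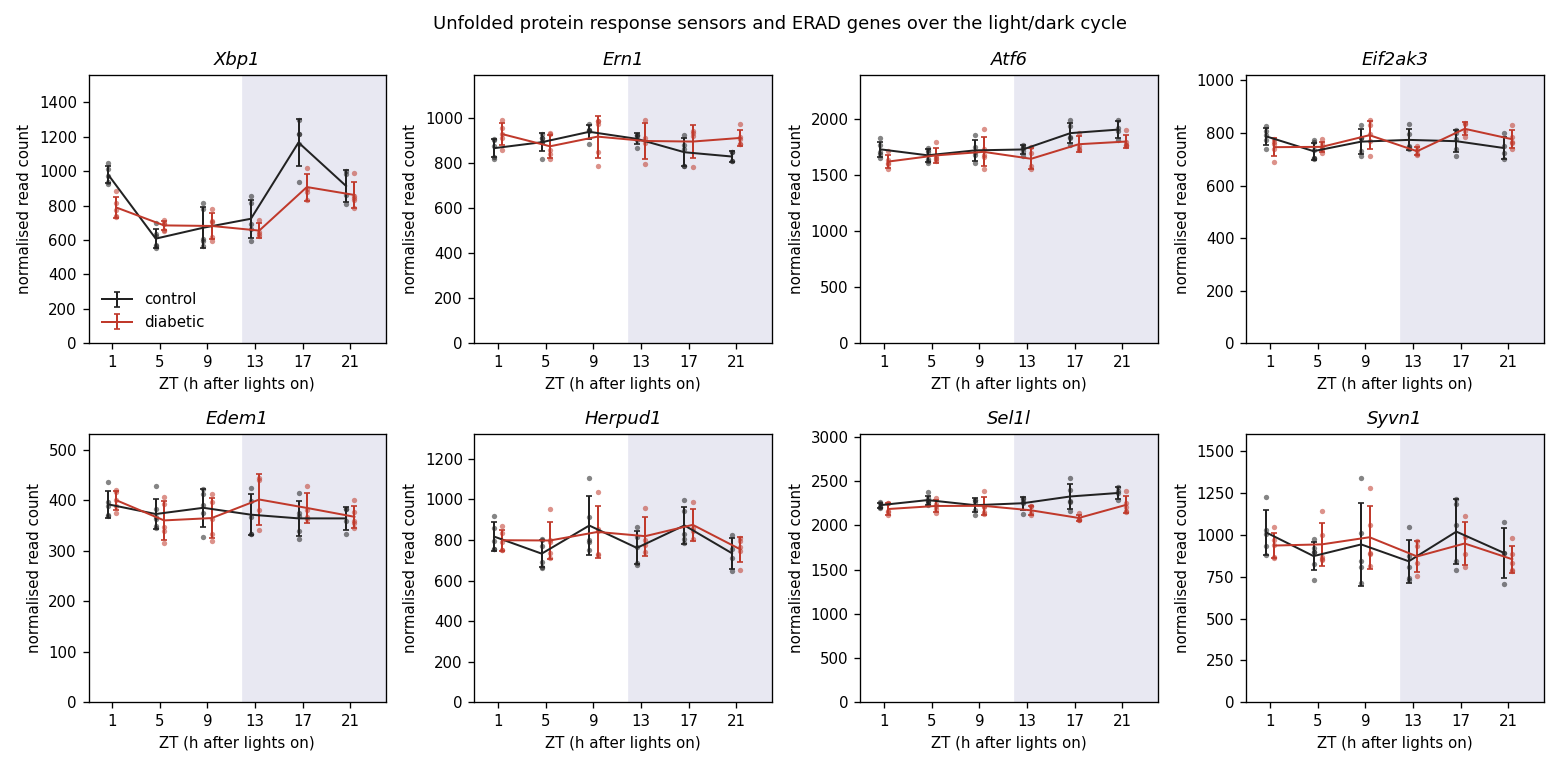
Normalised read count (y axis, starting at 0) of each of the 8 genes against ZT in hours (x axis, dark phase shaded), with control in black and diabetic in red; points are single libraries, and lines join group means with SD bars. Xbp1 rises at ZT17 in both genotypes, to a mean of 1165 in control and 907 in diabetic retinas, while the means of the other 7 genes differ between times by a fold of at most 1.21 in either genotype.

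At ZT5 the 6 control libraries had between 554 and 698 Xbp1 reads with a median of 598. At ZT17 the 5 control libraries had 939, 1158, 1216, 1215 and 1298. Every control library at ZT17 was above every one at ZT5. The means in between were 671 ± 118 (SD, n = 5) at ZT9 and 723 ± 109 (SD, n = 5) at ZT13, with ranges that overlapped that of ZT5. At ZT21 the 4 control libraries had 859, 808, 1002 and 984, and at ZT1, after lights on, the 5 had 1014, 970, 927, 936 and 1048. Xbp1 thus stayed high across dawn in control retinas before falling by ZT5.

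In diabetic retinas the 5 libraries at ZT5 had 652, 659, 701, 693 and 718 Xbp1 reads, and the 4 at ZT17 had 897, 1018, 834 and 879. These groups did not overlap either, but the distance between them was smaller than in control retinas. At ZT1 the 5 diabetic libraries had 813, 884, 738, 773 and 733, below the diabetic night values at ZT17 with the exception of 884, which lay above 834 and 879. The lowest diabetic mean was 655 ± 43.6 (SD, n = 4), at ZT13.

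From ZT5 to ZT17 Xbp1 rose by 0.94 ± 0.089 (SE) on the log2 scale in control retinas, a fold of 1.92 (edgeR quasi-likelihood test, Benjamini-Hochberg adjusted p = 5.1e-11). In diabetic retinas it rose by 0.41 ± 0.098, a fold of 1.32 (edgeR, Benjamini-Hochberg adjusted p = 0.0050). Without the 3 libraries rich in lens transcripts the control rise was 0.89. The 24 h cosine of Xbp1 had a relative amplitude of 29.0% ± 4.33 of the mean (SE) in control retinas, where it peaked at ZT19.6 ± 0.557 h. The diabetic amplitude was 15.4% ± 2.54, and the peak fell at ZT20.1 ± 0.649 h. The empirical JTK p-values were 0.00013 and 2.0e-06, or 0.0052 and 0.00034 after Benjamini-Hochberg adjustment over the expressed genes. In control retinas 96.7% of expressed genes had a smaller relative amplitude than Xbp1, and in diabetic retinas 83.4%.

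Summed markers of rods, bipolar cells, amacrine cells, ganglion cells, Müller glia, endothelium, microglia and retinal pigment epithelium had higher means at ZT17 than at ZT5 in both genotypes, while those of cones went from 941 to 876 CPM in control and from 864 to 866 CPM in diabetic libraries. All 6 pigment epithelium markers were detected, and their sum went from a mean of 44.0 CPM (21.1 to 76.0) at ZT5 to 97.7 CPM (62.1 to 131) at ZT17 in control libraries. In diabetic libraries it went from 16.9 CPM (13.6 to 19.1) to 72.5 CPM (46.0 or more), with no overlap. From ZT5 to ZT17, 2 of these 6 markers rose in control and 3 of 6 in diabetic retinas (edgeR), beside 8.16% and 3.95% of all genes. At the other times the control mean of the pigment epithelium sum was 37.9 CPM at ZT1, 95.8 CPM at ZT9, 81.3 CPM at ZT13 and 125 CPM at ZT21. All 6 Müller glia markers were detected, with none near 0, and their sum ranged from 2799 to 3096 CPM at ZT5 and from 3354 to 3538 CPM at ZT17 in control libraries. In diabetic libraries it ranged from 2615 to 3351 CPM at ZT5 and from 3165 to 3669 CPM at ZT17. All 6 bipolar cell markers were detected too, and their sum ranged from 1423 to 1568 CPM at ZT5 and from 1678 to 1908 CPM at ZT17 in control, and from 1297 to 1506 CPM and 1584 to 1799 CPM in diabetic libraries. In control libraries the means went from 2925 to 3418 CPM for Müller glia and from 1515 to 1786 CPM for bipolar cells, beside 608 to 1165 normalised reads for Xbp1. Microglia markers went from a mean of 14.97 to 18.4 CPM in control and from 13.9 to 17.1 CPM in diabetic libraries, amacrine markers from 715 to 775 CPM and from 721 to 794 CPM, and ganglion cell markers from 661 to 728 CPM and from 716 to 770 CPM. By single markers, edgeR called 5 of 6 bipolar, 2 of 6 Müller glia, 1 of 6 amacrine, 0 of 6 microglia and 0 of 6 ganglion cell markers higher at ZT17 in control retinas, beside 8.16% of all genes, with 3 microglia and 2 ganglion cell markers at an unadjusted p under 0.05, beside 31.3%. Over control libraries the r of these sums with Xbp1 was 0.68 for Müller glia, 0.53 for amacrine and 0.50 for bipolar cells. It was 0.49 for microglia, 0.33 for rods, 0.29 for ganglion cells, 0.07 for pigment epithelium, 0.04 for endothelium and -0.27 for cones. The diabetic r ran from 0.09 for cones to 0.46 for bipolar cells and endothelium, with 0.41 for Müller glia and 0.23 for pigment epithelium. The part of these cells in the Xbp1 values was not tested.

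Of the 3 sensors, Atf6 and Ern1 had significant daily waveforms in control retinas that fell just short of the ratio required. Atf6 had p = 0.00026 in the empirical JTK permutation test with a fold of 1.242 between its extreme libraries, and Ern1 had p = 0.00036 with a fold of 1.239. Xbp1, at 2.34 in control and 1.71 in diabetic retinas, was well inside the limit. The ratio rule set these calls: at any ratio, 3 of 8 members (Xbp1, Atf6 and Ern1) had p under 0.05 in control retinas, where 22.4% of expressed genes had, and 2 of 8 (Xbp1 and Atf6) in diabetic ones, where 24.2% had. Over 14 alternatives of the rhythm test, the highest p in control retinas was 0.055 for Ern1 and 0.021 for Atf6. For Atf6 in diabetic retinas it was 0.29. In a test of any difference among the 6 times, Ern1 did not pass in control retinas (edgeR, unadjusted p = 0.060, Benjamini-Hochberg adjusted p = 0.25).

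Atf6 in control retinas was low by day and high late at night. Its 6 libraries at ZT5 ranged from 1610 to 1745 normalised reads with a median of 1678, those at ZT17 had 1832, 1989, 1772, 1840 and 1942, and those at ZT21 had 1897, 1816, 1917 and 1996. Neither night group overlapped with the ZT5 group. The rise from ZT5 to ZT17 was 0.16 ± 0.044 on the log2 scale, a fold of 1.12 (edgeR, Benjamini-Hochberg adjusted p = 0.0091), and it was 0.14 without the lens-rich libraries. The cosine amplitude was 6.10% ± 1.11 with a peak at ZT18.9. In diabetic retinas the amplitude of Atf6 was 3.29% ± 1.497 with a peak at ZT18.0 (empirical JTK permutation p = 0.012, adjusted p = 0.085), and the change from ZT5 to ZT17 was 0.08 ± 0.049, which did not pass (edgeR, Benjamini-Hochberg adjusted p = 0.33).

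Ern1 ran opposite to Atf6 and Xbp1 in control retinas, with a cosine amplitude of 5.73% ± 1.16 and a peak in the day, at ZT9.0. Its 5 control libraries at ZT9 had 948, 974, 941, 887 and 945 normalised reads, and the 4 at ZT21 had 850, 809, 808 and 851. The ZT9 group lay wholly above the ZT21 group. In diabetic retinas Ern1 had a mean between 875 and 929 at all 6 times and an amplitude of 0.799% ± 1.89 (empirical JTK permutation p = 0.987). Eif2ak3 was not called rhythmic, with a control amplitude of 1.14% ± 1.38 and a diabetic one of 2.29% ± 1.48 (empirical JTK permutation p = 0.43 and 0.20), and its group means stayed between 731 and 816. Its diabetic p depended on the times included: it was 0.000495 without ZT9, 0.0073 without ZT13 and 0.68 without ZT17 in the same permutation test, with a fold between extreme libraries of at most 1.234 in each case, under the limit. Over the 6 times in diabetic retinas Eif2ak3 had an unadjusted p of 0.046 and did not pass (edgeR, Benjamini-Hochberg adjusted p = 0.21).

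None of the 4 ERAD genes was called rhythmic in either genotype, with empirical JTK permutation p-values from 0.14 (Sel1l in control) to 0.63 (Syvn1 in diabetic). For Sel1l this permutation p was 0.039 in control retinas without ZT17 replicate 1, and 0.047 and 0.040 in diabetic ones without ZT1 and without ZT21, with folds between extreme libraries of at most 1.197. Edem1 group means ran from 360 to 401 normalised reads and those of Sel1l from 2085 to 2367. Herpud1 was 0.25 ± 0.093 higher on the log2 scale at ZT17 than at ZT5 in control retinas, from a mean of 733 to 872, just outside the threshold (edgeR, Benjamini-Hochberg adjusted p = 0.055), and 0.13 ± 0.10 higher in diabetic ones (adjusted p = 0.48 by edgeR with Benjamini-Hochberg). The control difference of Herpud1 passed with the DESeq2 Wald test (Benjamini-Hochberg adjusted p = 0.048), and with edgeR when any 1 of 6 libraries was left out, namely control ZT5 replicate 5 or 6, control ZT17 replicate 2 or 4, or replicate 4 at ZT9 of either genotype (adjusted p = 0.038 to 0.04997). Other edgeR alternatives moved it the other way, to an adjusted p of up to 0.22. Syvn1 had group means between 843 and 1020, with SDs from 76.1 to 246. The widest group, control ZT9, held 1 library at 1338, replicate 4, against 711 to 1013 in the other 4.

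A test of any difference among the 6 times, which assumes no waveform, gave 2 of 8 members in control retinas, Xbp1 (edgeR quasi-likelihood F test, Benjamini-Hochberg adjusted p = 1.7e-11) and Atf6 (adjusted p = 0.012), where 9.25% of 18814 genes passed. With no filter on low counts Atf6 no longer passed, either in this test (edgeR, Benjamini-Hochberg adjusted p = 0.11) or from ZT5 to ZT17 (adjusted p = 0.052), where its log2 difference was 0.16 as before. In diabetic retinas it gave 1 of 8, Xbp1 (edgeR, Benjamini-Hochberg adjusted p = 0.00054), where 10.2% passed. For ZT17 against ZT5, 15.6% of all genes were called in control and 7.6% in diabetic retinas, against 2 and 1 of the 8 members, all of them higher at night. The median log2 difference of the members was 0.12 in control and 0.09 in diabetic retinas, beside -0.02 and -0.01 over all genes tested. No member passed across lights off (ZT13 against ZT9) or across lights on (ZT1 against ZT21) with edgeR in either genotype, where 0.128% and 0.739% of genes passed in control retinas and 0.175% and 2.9% in diabetic ones. At an unadjusted p under 0.05 there were 0 and 2 members in control, beside 5.63% and 7.91% of genes, and 1 and 1 in diabetic retinas, beside 7.83% and 15.6%. The DESeq2 Wald test called Atf6 across lights on in diabetic retinas, at a log2 difference of -0.15 (Benjamini-Hochberg adjusted p = 0.026, against 0.066 with edgeR), and edgeR did so without diabetic ZT1 replicate 1 (adjusted p = 0.036) or without diabetic ZT9 replicate 3 (adjusted p = 0.045). In the other edgeR alternatives it did not pass, with an adjusted p of up to 0.22.

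The second question was whether the daily course differed in diabetic retinas. The amplitude of Xbp1 in diabetic retinas was below that in control ones by 0.91 on the log2 scale, while its peak was 0.569 h later. Among the 2268 transcripts rhythmic in both genotypes, 1.146% had a lower log2 amplitude ratio, and their median ratio was 0.08. In a rank-based test of differential rhythmicity the unadjusted p of Xbp1 was 0.021, and it did not pass after adjustment (Benjamini-Hochberg adjusted p = 0.52, over 6469 genes rhythmic in either genotype). In that test 0 of 6469 genes passed after adjustment and 8.69% had an unadjusted p under 0.05. The interaction of genotype with the 6 times gave Xbp1 an unadjusted p of 0.0014 in edgeR, where 2.69% of genes had p under 0.05 and 0 passed after adjustment. The smaller amplitude of Xbp1 in diabetic retinas therefore did not pass adjustment in either of these tests. The rank-based test stands in for the study's own package, with which the study did call differentially rhythmic genes. Among those of reduced amplitude in diabetes, the study reported enrichment of ER stress and of the unfolded protein response. For the 7 other members the interaction p was 0.107 or higher before adjustment. In the rank-based test Ern1 had an unadjusted p of 0.034 and a log2 amplitude ratio of -2.84, and Sel1l had an unadjusted p of 0.052. Ern1 did not pass over all expressed genes either (Benjamini-Hochberg adjusted p = 1.0), and the 5 remaining members had unadjusted p-values of 0.25 or higher.

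**Figure D2:**
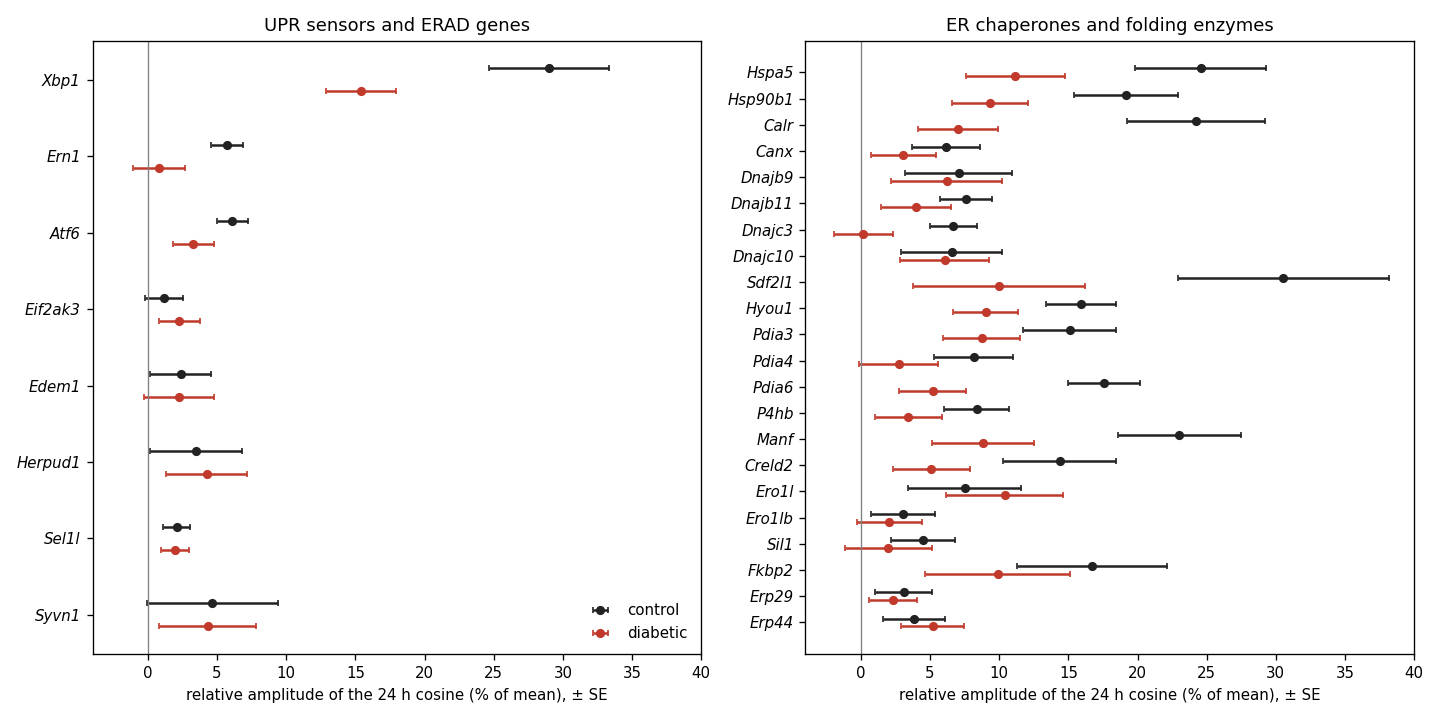
Relative amplitude of the fitted 24 h cosine in % of the gene's mean (x axis) for the 8 genes (left) and 22 ER chaperones and folding enzymes (right), with control in black, diabetic in red and bars for the SE. Xbp1 stands at 29.0% in the control and at 15.4% in the diabetic group, while each of the other 7 members lies under 7% in both.

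The third comparison was the level in diabetic against control retinas. Over all times, 0 of 8 members passed in the edgeR test, a fit of 2 groups with no term for time, where 3.11% of 18814 genes did, and 2 of 8 had an unadjusted p under 0.05, where 15.5% of genes had. The median log2 fold change of the members was 0.00, as over all genes. Sel1l came nearest in edgeR, with a log2 fold change of -0.06 ± 0.017, a change of -3.83% in diabetic retinas (Benjamini-Hochberg adjusted p = 0.053), beside an SD of 0.047 within groups. This call turned on the fit: Sel1l passed at -0.06 with the time point as a covariate in edgeR (Benjamini-Hochberg adjusted p = 0.027) and with the DESeq2 Wald test (adjusted p = 0.019). It also passed with edgeR in 13 of 58 fits without 1 library (adjusted p = 0.027 to 0.049), those without control ZT1 replicate 2, 4 or 6, ZT9 replicate 1 or 3, ZT13 replicate 5 or ZT17 replicate 1, or diabetic ZT1 replicate 1 or 2, ZT5 replicate 3 or 4, ZT9 replicate 3 or ZT21 replicate 2. Atf6 had a change of -3.39% (edgeR, Benjamini-Hochberg adjusted p = 0.29) and Xbp1 one of -8.62%, at -0.13 ± 0.078 on the log2 scale (edgeR, Benjamini-Hochberg adjusted p = 0.44). This value of Xbp1 was -0.06 without ZT17 and -0.19 without ZT5 (edgeR, Benjamini-Hochberg adjusted p = 0.79 and 0.27), and -0.09 without the lens-rich libraries. The other 5 lay between -0.01 and 0.04 on the log2 scale, with SEs of 0.023 to 0.056.

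Taken by time of day, the log2 fold changes farthest from 0 were those of Xbp1 at ZT17 and ZT1, while the interaction above gave no call. In the edgeR test without a replicate term no member passed at any of the 6 times, where the share of genes called was 0% at ZT13 and ZT21, 0.00532% at ZT9, 0.0106% at ZT1, 0.0213% at ZT5 and 0.175% at ZT17; at an unadjusted p under 0.05 there was 1 member at ZT1, 2 at ZT17 and 2 at ZT21, where 5.49%, 8.94% and 4.67% of genes had such a p.

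At ZT17 the 4 diabetic libraries had 2140, 2076, 2061 and 2063 normalised Sel1l reads against 2168, 2533, 2264, 2274 and 2402 in the 5 control libraries. All diabetic values lay below all control values, by a log2 fold change of -0.16 ± 0.041 (edgeR, Benjamini-Hochberg adjusted p = 0.085, unadjusted p = 0.00027). The nearest values, 2140 and 2168, differed little. The DESeq2 Wald test called both Sel1l (Benjamini-Hochberg adjusted p = 0.0096) and Xbp1 (adjusted p = 0.043) at ZT17. In the other 5 time groups the log2 fold change of Sel1l was between 0.00 and -0.08 and the ranges overlapped.

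Xbp1 at ZT17 had a log2 fold change of -0.36 ± 0.098 in diabetic retinas, a change of -22.1% (edgeR, Benjamini-Hochberg adjusted p = 0.11, unadjusted p = 0.00053). The ranges overlapped, since the lowest control library, at 939, was below the highest diabetic one, at 1018. At ZT1 the difference was -0.31 ± 0.093, or -19.4% (edgeR, Benjamini-Hochberg adjusted p = 0.46), and the ranges did not overlap, with 927 as the lowest control value and 884 as the highest diabetic one. At ZT5 the sign was the other way, with 12.8% more Xbp1 in diabetic retinas and overlapping ranges (edgeR, Benjamini-Hochberg adjusted p = 0.83). The lens-rich libraries at ZT1 and ZT17 had the highest Xbp1 of their groups, at 1048 and 1298, and the one at ZT21 had the lowest, at 808; without the 3 of them the differences were -0.28 at ZT1, -0.32 at ZT17 and -0.14 at ZT21, in place of -0.09 at ZT21.

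**Figure D3:**
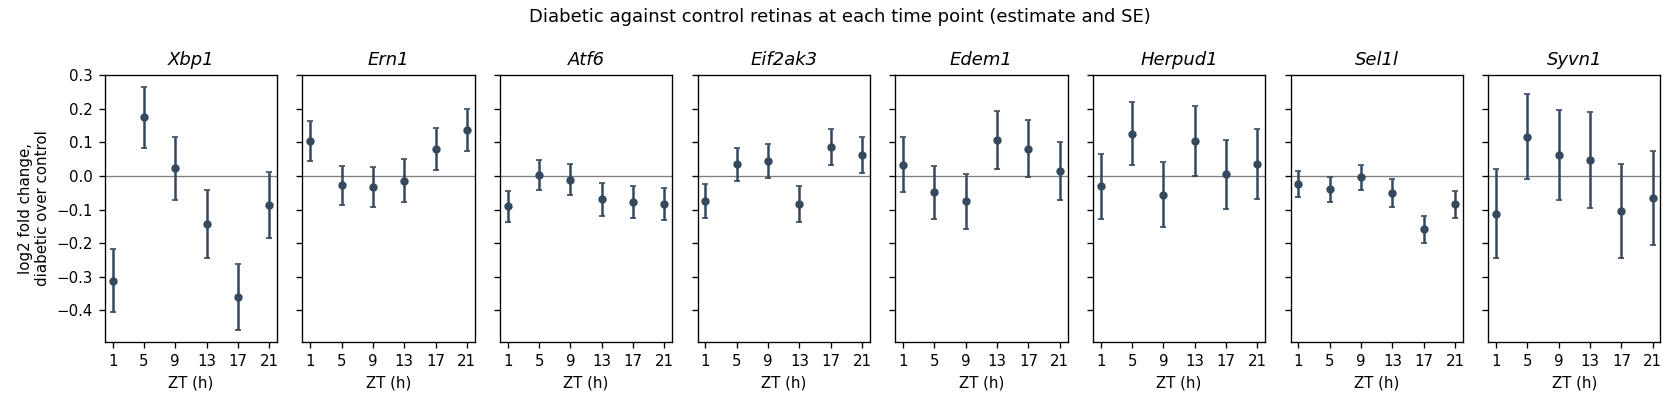
Log2 fold change of diabetic over control retinas (y axis) at each ZT in hours (x axis) for the 8 genes, as edgeR estimates with SE bars; the line marks 0. Xbp1 runs from 0.17 at ZT5 to -0.36 at ZT17, Sel1l reaches -0.16 at ZT17, and no value passed the adjusted threshold in this fit, which has no replicate term.

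The other sensor genes gave smaller values. Ern1 at ZT21 had a log2 fold change of 0.14 ± 0.063 in diabetic retinas, where its 5 diabetic libraries had 915, 972, 905, 883 and 884 normalised reads against at most 851 in the 4 control ones. Those groups did not overlap, but the difference did not pass (edgeR, Benjamini-Hochberg adjusted p = 1.0, unadjusted p = 0.036). Atf6 had log2 fold changes between -0.09 and -0.07 at ZT1, ZT13, ZT17 and ZT21, with SEs of 0.046 to 0.049. Eif2ak3 lay between -0.08 and 0.09 over the 6 times, with SEs of 0.049 to 0.054. For the ERAD genes Edem1, Herpud1 and Syvn1 all 18 differences lay between -0.11 and 0.13, with the widest SEs, of up to 0.14, for Syvn1.

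Genes that act with the members were taken from lists by role. Of 22 ER chaperones and folding enzymes, 15 were rhythmic in controls (21.8% of expressed genes) and 6 in diabetic retinas (23.9%), all with a peak in the night, and 5 were rhythmic in both (11.9%), all 5 with a lower amplitude in diabetic retinas, where 42.5% of transcripts rhythmic in both genotypes had a lower one. From ZT5 to ZT17, 11 of the 22 rose in control (higher in 8.16% of all genes) and 0 of the 22 in diabetic retinas (edgeR; higher in 3.95% of all genes). At an unadjusted p under 0.05 there were 14 of the 22 in control, beside 31.3% of all genes, and 4 of the 22 in diabetic retinas, beside 21.6%. Their median log2 difference was 0.21 in control and 0.04 in diabetic retinas. Hspa5, encoding BiP, the chaperone that keeps the sensors inactive, oscillated with an amplitude of 24.6% ± 4.74 in controls, peaking at ZT20.5, and of 11.2% ± 3.58 in diabetic retinas, peaking at ZT21.7. Manf, encoding a secreted ER stress protein, had 23.0% ± 4.44 and 8.84% ± 3.71, and Hyou1, encoding an ER nucleotide exchange factor, had 15.9% ± 2.53 and 9.04% ± 2.35. Pdia4, encoding a disulfide isomerase, had 8.15% ± 2.88 in controls, peaking at ZT19.0, and was not rhythmic in diabetic retinas (empirical JTK permutation p = 0.27). Dnajb9, encoding a BiP co-chaperone, was not rhythmic in either genotype (empirical JTK permutation p = 0.26 and 0.43).

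Of the same 22 genes, 4 were lower in diabetic retinas over all times and 0 higher (edgeR; 1.45% of all genes were lower), namely Calr at -0.27 ± 0.072, Pdia6 at -0.21 ± 0.048, Creld2 at -0.20 ± 0.056 and Dnajb11 at -0.13 ± 0.034 on the log2 scale. At ZT17 4 of 22 were lower, where 0.101% of all genes were, with Sdf2l1 at -0.89, Calr at -0.62, Creld2 at -0.56 and Pdia6 at -0.46. At the other 5 times 0 of 22 were called with edgeR, and the median log2 fold change of the list was -0.19 at ZT1, -0.17 at ZT17, -0.15 at ZT13, -0.11 at ZT21, -0.02 at ZT5 and 0.02 at ZT9. The number with an unadjusted p under 0.05 was 12 at ZT1, 11 at ZT17, 2 at ZT13, 3 at ZT21, 1 at ZT5 and 0 at ZT9. Over all genes the share in the same order was 5.49%, 8.94%, 4.48%, 4.67%, 6.1% and 4.44%. In the interaction of genotype with time 0 of the 22 passed with edgeR and 8 had an unadjusted p under 0.05, where 2.69% of all genes had. Calr encodes the lectin chaperone calreticulin, Pdia6 a disulfide isomerase, Dnajb11 and Sdf2l1 proteins that work with BiP, and Creld2 a secreted ER stress protein. Hspa5 at ZT17 had -0.45 (edgeR, Benjamini-Hochberg adjusted p = 0.086) and Hsp90b1 -0.31 (adjusted p = 0.34). These are the same libraries in which Xbp1 had -0.36. Some photoreceptor markers were lower in diabetic retinas as well: over all times 3 of 6 cone markers and 1 of 7 rod markers were called lower with edgeR, beside 1.45% of all genes. Their median log2 fold changes were -0.12 and -0.09, and at single times none of them was called. At ZT1, the time of the lowest chaperone median, cone markers had a median of -0.21 with 4 of 6 at an unadjusted p under 0.05. Rod markers had one of -0.12 with 2 of 7, beside 5.49% of all genes. At ZT5, where the chaperone median was near 0, the cone median was -0.20 with 4 of 6, where 6.1% of all genes had such a p. At ZT17 the cone median was -0.04 with 0 of 6, and the rod median -0.10 with 2 of 7, where 8.94% of all genes had such a p. Of the 6 bipolar cell markers 0 were called over all times with edgeR and 3 had an unadjusted p under 0.05, beside 15.5% of all genes, with a median of -0.10. The part of these cells in the chaperone values was not tested.

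Of 31 other ERAD components tested, 6 were rhythmic in control, 4 in diabetic retinas and 2 in both, where 21.8%, 23.9% and 11.9% of expressed genes were, and 0 passed for diabetic against control over all times with edgeR, with 4 at an unadjusted p under 0.05, where 15.5% of genes had such a p. Ufd1 and Ubxn8, which recruit the extraction motor p97 and were rhythmic in both, peaked by day, at ZT6.11 and ZT10.7 in control retinas. Selenos, an ER membrane partner of the degradation complex, and Ngly1, which strips glycans from extracted proteins, peaked at ZT6.87 and ZT7.06 in control. Derl3, an ERAD channel protein that averaged 7.35 normalised reads, had a night peak in control with 43.0% ± 11.3. Vcp, Os9 and Derl1 had no rhythm in either genotype. From ZT5 to ZT17 the list had 1 gene higher and 4 lower in control retinas, where 8.16% and 7.43% of all genes were, and 0 higher and 3 lower in diabetic ones, where 3.95% and 3.65% were.

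Of 19 expressed sensor partners and other ER stress transducers, 4 were rhythmic in controls, 6 in diabetic retinas and 3 in both, beside the same shares of 21.8%, 23.9% and 11.9%. Mbtps1, the protease that makes the first cut in ATF6, peaked by day, at ZT8.20 with 4.91% ± 1.01 in control and at ZT7.86 with 6.70% ± 0.877 in diabetic retinas, while Mbtps2, which makes the second cut, was not rhythmic. Atf6b, the paralogue of Atf6, had a night peak at ZT20.1 with 10.05% ± 3.45 in control retinas. Map3k5, a kinase downstream of IRE1, peaked at ZT20.0 and ZT16.9. Nfya, a subunit of the factor that binds the CCAAT part of the ERSE, was rhythmic in diabetic retinas (empirical JTK permutation p = 0.00019) with a peak at ZT3.44, and had p = 0.10 in control ones. None of the 19 passed for diabetic against control over all times with edgeR, and 3 had an unadjusted p under 0.05, beside 15.5% of genes.

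Of 21 genes of the PERK and ATF4 branch, 6 were rhythmic in each genotype (21.8% and 23.9% of expressed genes), 3 of them in both (11.9%). Ppp1r15a, whose product reverses the PERK signal, had 13.98% ± 4.49 in controls, peaking at ZT17.9, and 15.6% ± 3.75 in diabetic retinas, peaking at ZT17.5, and Ddit3, which encodes CHOP, had 9.36% ± 3.19 and 7.70% ± 3.38 with peaks at ZT19.1 and ZT21.5. Atf4 itself was not rhythmic, with a log2 fold change of 0.17 ± 0.057 in diabetic retinas (edgeR, Benjamini-Hochberg adjusted p = 0.092), and Asns, an ATF4 target, had -0.06 ± 0.041. None of the 21 passed over all times with edgeR, and 4 had an unadjusted p under 0.05, beside 15.5% of genes. Ddit4, encoding an inhibitor of mTORC1, had 12.2% ± 2.81 in controls, peaking at ZT18.1, and was not rhythmic in diabetic retinas (empirical JTK permutation p = 0.15). Of 15 clock genes, 7 were rhythmic in each genotype, beside 21.8% and 23.9% of expressed genes. Rorb, encoding a nuclear receptor, had 21.6% ± 2.71 in control and 29.4% ± 2.32 in diabetic retinas, with peaks at ZT18.4 and ZT17.4. Dbp, a clock output factor, had 14.8% ± 3.75 and 16.3% ± 3.10, with peaks at ZT10.3 and ZT9.60. Its amplitudes thus differed by less than their SEs. Rora, encoding a related receptor, was rhythmic in diabetic retinas, with 8.42% ± 1.99 and a peak at ZT16.3, and had p = 0.13 in control ones (empirical JTK permutation test).

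The genes whose values followed each member most closely were found by Pearson's r of log2 CPM over the 58 libraries, which share depth and group. For Xbp1 they were Mtmr4 (r = 0.91), Dnajb2 (r = 0.86) and Hyou1 (r = 0.86), each with a peak between ZT19.4 and ZT20.4 in control retinas. For Atf6 they were Snrk, Esrrg and Phyhipl (r = 0.76 to 0.74), and for Syvn1 Aup1, Sf3a2 and Pom121 (r = 0.95 to 0.90). For Herpud1 they were Dda1, Dnajb12 and Maml1 (r = 0.82 to 0.81), and for Eif2ak3 Eml1, Kansl3 and Sirpa (r = 0.67 to 0.66). Ern1 had Hook2, Qtrt1 and Snrnp70 (r = 0.66 to 0.63), Edem1 had Zfp866, Gm37036 and Atp7a (r = 0.70 to 0.63), and Sel1l had Map2, Nxnl1 and Spc25 (r = 0.62 to 0.60). Aup1, near Syvn1, and Dnajb12, near Herpud1, act in ERAD. The other genes named for Syvn1, Sf3a2 and Pom121, had r = 0.90, and those for Herpud1, Dda1 and Maml1, had r = 0.82 and 0.81. Syvn1 and Herpud1 also followed the main axis of variation within groups, given below, and its part in these r was not tested.

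Within groups, so with time and genotype taken out, the 28 pairs of members had r between -0.51 (Edem1 and Syvn1) and 0.75 (Herpud1 and Syvn1), with a median of 0.07. Of the 4 chaperone or stress genes compared, Xbp1 had r = 0.60 with Hspa5, 0.54 with Creld2, 0.10 with Hsp90b1 and -0.17 with Dnajb9, and with the sensors it had r = 0.44 for Eif2ak3, 0.26 for Atf6 and 0.03 for Ern1. Herpud1 and Syvn1 also followed the main axis of variation between libraries of the same group, which held 36.4% of the variance, at r = -0.86 and -0.88. Edem1 had r = 0.53 with it, opposite in sign to Syvn1, and Eif2ak3 -0.47, against -0.31 for Xbp1, 0.18 for Sel1l, -0.14 for Ern1 and -0.06 for Atf6. The library farthest out on it, control ZT9 replicate 4, had the highest value of both genes in any library, at 1104 Herpud1 and 1338 Syvn1 reads. The part of this axis in the values of Herpud1, Syvn1 and Edem1, and in the r of -0.51 between the last 2, was not tested.

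**Figure D4:**
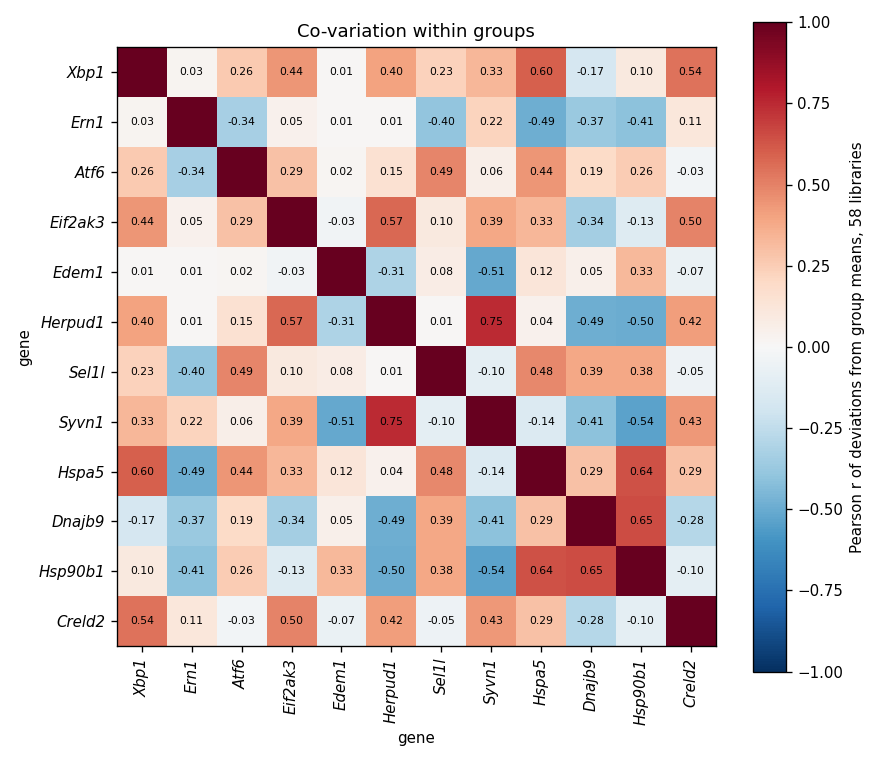
Pearson's r between genes (both axes, gene symbols) of the deviations of log2 CPM from the group means over the 58 libraries, for the 8 genes and 4 ER chaperone or stress genes, on a colour scale from -1 to 1. Herpud1 and Syvn1 form the closest pair of members at 0.75, while Xbp1 is nearest to Hspa5 at 0.60.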

How the data were processed

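Total RNA of single retinas was depleted of ribosomal RNA and sequenced. According to the submitters' processing notes and the study's methods, the authors aligned reads with STAR (2.7.4a) to GRCm38.p5 with a Gencode annotation and counted them per gene with HTSeq (0.11.1). The deposited values are these raw read counts, neither normalized nor filtered. Columns were mapped to samples by their titles, and 113 pairs of replicates differed by more than sampling noise.

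Differential expression was tested with edgeR (4.0.16, R 4.3.3) quasi-likelihood fits on TMM factors over 18814 genes kept by filterByExpr, with Benjamini-Hochberg adjustment, in a fit of 12 groups or, over all times, of 2 groups. For rhythm, counts were scaled by DESeq2 (1.42.0) size factors, 19120 genes with a median above 4 over all samples were kept, and empirical JTK was rewritten in Python (3.11.15, numba 0.67.0) with 30 waveforms of period 24 h. Amplitudes and peaks are those of a least-squares cosine. A rank-based regression stood in for the study's differential rhythmicity package. The edgeR tests over all times, at ZT17 and of the interaction, the empirical JTK, the rank-based regression and the cosine fit were checked on simulated data. The DESeq2 Wald test and the edgeR time tests within a genotype were not. The study's methods call the samples of a time point biological replicates, while the labels do not say whether any retinas came from the same mouse. The p-values treat each library as an independent replicate.

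Named genes were the 8 members, fixed companions of known role, the 3 genes of each list with the smallest rhythm p-value and the 3 genes most correlated with each member. Further genes that lead a list were named after their values were seen. The members and lists were chosen with earlier results of these data known. Alternatives covered scaling, filter, test, replicate block, and each library and time point left out; leaving out libraries above 100 CPM of lens markers, and dropping the minimum ratio, were added after seeing the data.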

Additional observations from a re-analysis of the deposited data

Results flagged for a closer look

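Of 96 combinations of a member and a group of 4 to 6 libraries, 4 held a library far from the others of its group, where chance alone would mark about 1 in 20. Ern1 was low in diabetic ZT17 replicate 1, at 785.1 normalised reads against 918 to 944 in the other 3 libraries, and low in control ZT5 replicate 4, at 816.9 against 893 to 929. Atf6 was high in diabetic ZT21 replicate 1, at 1905.2 against 1762 to 1798, and in diabetic ZT5 replicate 4, at 1791.5 against 1627 to 1672. None of these libraries decided a call of either gene when it was left out.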

How the results depend on the processing

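With no minimum ratio between libraries, an alternative chosen after seeing the data, 3 members were rhythmic in control (Xbp1, Atf6 and Ern1) and 2 in diabetic retinas (Xbp1 and Atf6), in place of 1 and 1; under the other alternatives run Xbp1 stayed the only one. No member was differentially rhythmic after adjustment under the alternatives run; the members passing across the 6 times in diabetic retinas stayed at 1 and the interaction at 0. Over all times the count of members passing for diabetic against control went from 0 to 1 (Sel1l) with time as a covariate, with the DESeq2 Wald test, and in 13 of 58 fits that left out 1 library (range 0 to 1). At single times it went from 0 to 1 (Xbp1 at ZT17, at -0.38 with an edgeR Benjamini-Hochberg adjusted p of 0.048) with the replicate block and to 2 (Xbp1 and Sel1l at ZT17) with the DESeq2 Wald test, and was 0 in each of the fits without 1 library. With no filter on low counts, which tests more genes, Atf6 no longer passed over time in control retinas (0.16 from ZT5 to ZT17, as before), leaving 1 of 2 members, while with the replicate block Herpud1 passed as well, making 3 (adjusted p = 0.042). The time contrasts gave 5 calls in place of 3 with the DESeq2 Wald test (also Herpud1 from ZT5 to ZT17 in control and Atf6 across lights on in diabetic retinas), 2 with no filter, and 3 to 4 without single libraries.

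Over all genes, the number passing for diabetic against control was 586, and 901 with time as a covariate, 672 with DESeq2 and 387 with no filter. At ZT17 it was 33, and 90 with DESeq2 and 62 with the replicate block. Small differences over all times changed sign: Eif2ak3 to -0.0048 without ZT17, Edem1 to -0.0015 without ZT13 and -0.0026 without ZT17, Herpud1 to -3.6e-05 without ZT5, and Syvn1 to 0.012 without ZT1, 0.0070 without ZT17 and 0.0023 without ZT21. Leaving out single libraries moved Syvn1 between -0.029 and 0.012, Xbp1 at ZT9 between -0.039 and 0.10, Sel1l at ZT9 between -0.033 and 0.0044, and Sel1l from ZT5 to ZT17 in control between -0.014 and 0.050. Xbp1 over all times lay between -0.19 and -0.06, with an adjusted p from 0.14 to 0.79. The adjusted p of Sel1l over all times ranged from 0.019 to 0.24, that of Sel1l at ZT17 from 0.0096 to 0.47, and that of Xbp1 at ZT17 from 0.043 to 0.38. Where not stated, the cause was not tested.

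Libraries of the same number in the 2 genotypes share only a number. Their deviations correlated at a median of 0.275, against -0.076 for other pairs, with 20 of 26 above 0.1 and a lowest of -0.464, a hint from the data rather than the design. The replicate block moved the count of genes across the 6 times in control retinas from 1740 to 2469, and made Herpud1 pass from ZT5 to ZT17 in control, at 0.29 (edgeR, Benjamini-Hochberg adjusted p = 0.013). With 4 to 6 retinas per group, differences near the SEs given could not be resolved.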
